A study of Mus musculus with 6 samples.

Results

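The 36 aminoacyl-tRNA synthetase genes described here comprise 20 genes of the cytosolic set and 16 of the mitochondrial set, whose names end in 2. They were taken by gene symbol and not by a cut on measured values, although earlier results of these data were known when they were chosen. The table of transcript abundances covered 13659 gene symbols, and all 36 had at least 1 transcript in it. The cells were MC3T3-E1 (subclone 4), an osteoblast-like line that was derived from the calvaria of mice (skull bone) and was kept in serum-containing minimum essential medium alpha. In the PTH group, 3 RNA-seq libraries came from cells given PTH(1-34), an amino-terminal piece of parathyroid hormone able to activate the hormone's receptor. In the vehicle group, 3 libraries came from the same line given vehicle. The labels name no genetic change in either group and no dose of the hormone, and they disagree on how long treatment lasted, with 30 min among the sample characteristics and 2 h in the protocol, so the time is uncertain throughout. The line is a single subclone. Separate cultures behind the libraries are not stated, and p-values therefore reflect the spread among these libraries alone, which may be technical.

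Aminoacyl-tRNA synthetases attach each amino acid to its own transfer RNA, the step that turns the genetic code into protein sequence. Mammalian cells keep a cytosolic set and a mitochondrial set, both encoded in the nucleus, and the enzymes fall into class I and class II by the fold of their catalytic domain. Several cytosolic enzymes are held together in the multi-synthetase complex, and many cytosolic synthetase genes are known targets of ATF4, the transcription factor of the integrated stress response and of amino acid shortage. The PTH receptor of osteoblasts signals through cyclic AMP and protein kinase A, which acts on genes through factors that bind cyclic AMP response elements.

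Levels are FPKM, fragment numbers corrected for transcript length and for the mapped total of each library, as estimated by the authors and summed here over the transcripts of a gene. Differences are log2 differences of PTH minus vehicle on the log2(FPKM + 0.5) scale, tested with limma and called at a Benjamini-Hochberg adjusted p under 0.05 over the 11628 genes with a mean of at least 1 FPKM. All 36 synthetase genes passed this minimum, although Pars2, at 0.711 ± 0.164 FPKM in PTH libraries and 1.64 ± 0.047 FPKM in vehicle libraries (SD, n = 3 each), passed it through the vehicle group. The depth of the libraries is unknown, since FPKM keep no counts. Tested genes had a median of 10.8 to 10.9 FPKM in PTH libraries and of 11.8 to 11.9 FPKM in vehicle libraries. In the same fit, 10.8% of all tested genes were higher and 41.0% were lower with PTH, with a median log2 difference of -0.15. After each library was centred on its median, a shift of 0.124 on the log2 scale, 18.3% were higher and 24.0% lower. After cyclic loess, which also removes a trend with level, 20.2% were higher and 17.6% lower. Of 10 osteoblast markers, 8 were measured, all at a mean of at least 1 FPKM, and their sum was 888 to 979 FPKM in PTH libraries and 868 to 952 FPKM in vehicle libraries. Most of this sum was Spp1 (osteopontin), and single markers differed in both directions: Sp7, a transcription factor of osteoblasts, was called lower at a log2 difference of -2.56, and Bglap and Bglap2, near-identical osteocalcin genes whose reads may be split uncertainly, and Runx2 were called higher at 2.35, 2.20 and 0.24. Of the markers of other lineages, Cd68 (haematopoietic) and Fabp4 (adipocyte) were below 1 FPKM on average, Col2a1 (cartilage) was at 1.83 to 6.27 FPKM in PTH libraries and 0.959 to 3.76 FPKM in vehicle libraries, and the others were not analysed here.

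Among the 20 cytosolic genes, Eprs was higher with PTH and 11 were lower, and among the 16 mitochondrial genes none was higher and 12 were lower. At an unadjusted limma p under 0.05, 1 cytosolic gene was higher and 12 were lower, and 0 mitochondrial genes were higher and 12 lower. The adjusted counts stand beside the 10.8% of all tested genes that were higher and the 41.0% that were lower. The median log2 difference was -0.17 over the cytosolic genes and -0.40 over the mitochondrial genes, against -0.15 over all tested genes. All 3 PTH values lay above all 3 vehicle values for 1 cytosolic gene and below them for 12, and for the mitochondrial genes these numbers were 0 and 12. Among all tested genes, 13.1% lay above and 47.5% below in the same way. With 3 libraries against 3, an exact permutation test of a single gene cannot give a p below 0.1, so the calls rest on the spread that limma shares across genes.

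The counts of lower genes depended on how libraries were scaled. After median centring, 2 cytosolic genes were called higher and 5 lower, and 1 mitochondrial gene was called higher and 9 lower. After cyclic loess, 1 cytosolic gene was higher and 5 were lower, and 0 mitochondrial genes were higher (2 at an unadjusted limma p under 0.05) and 5 lower. As TPM, that is, divided by the library total, 1 cytosolic gene was higher and 0 were lower (1 at an unadjusted limma p under 0.05), and 0 mitochondrial genes were higher (1 unadjusted) and 4 lower. Among all 12026 genes tested as TPM, 896 were higher and 1222 lower. The TPM scale carries the variation of Mir5105, a short RNA gene that took 19.0% to 39.6% of a library's FPKM. Eprs was higher, and Mars2, Rars2 and Yars2 were lower, in every setting in which each was tested. Pars2 was lower in the 15 settings in which it was tested, but it passed the minimum level through the vehicle group.

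**Figure D1:**
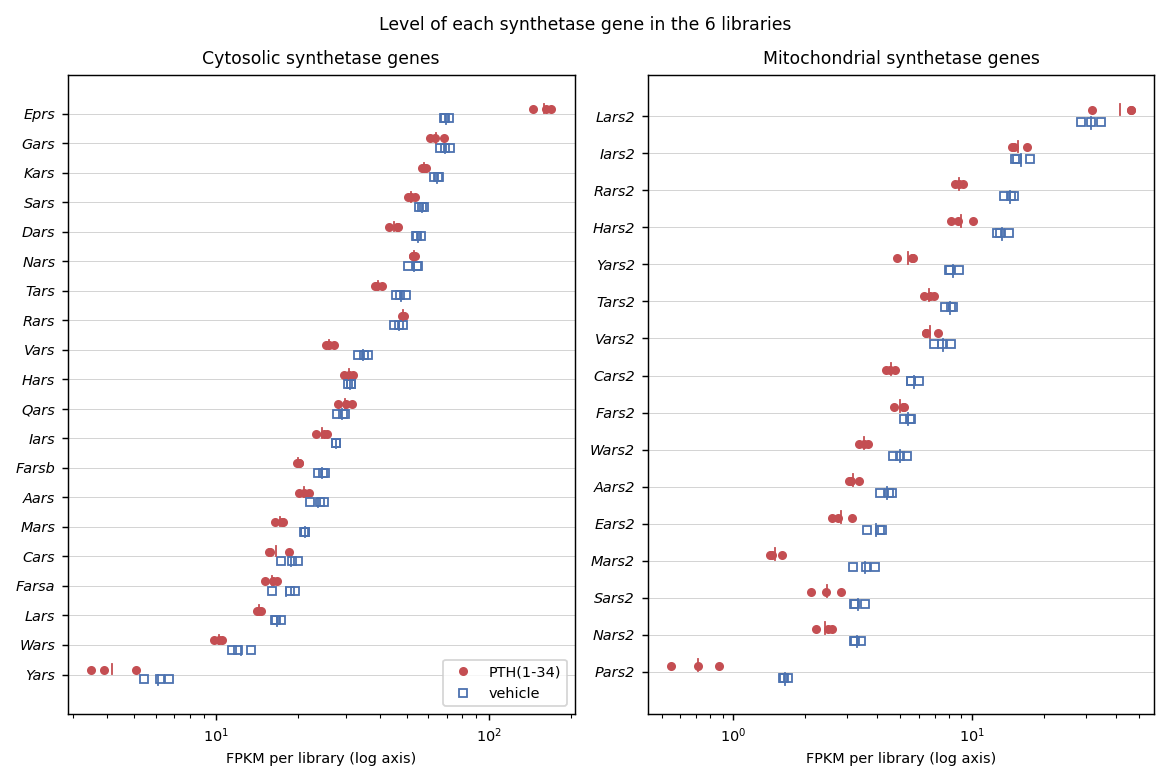
FPKM (log axis) of each synthetase gene in every library, PTH as filled circles above vehicle as open squares, with a short vertical line at each group's mean; genes are ordered by their vehicle mean. Eprs is at 145 to 170 FPKM in the PTH libraries, apart from 68.5 to 71.5 FPKM in the vehicle libraries, and Mars2, Pars2, Rars2, Yars2 and Hars2 show PTH values below all vehicle values.

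Eprs encodes the bifunctional glutamyl-prolyl-tRNA synthetase, which charges tRNAs for both glutamate and proline and sits in the multi-synthetase complex. The gene lies at chr1:185363044-185428360 on the plus strand (GRCm38, GENCODE M21) and had a single, protein-coding transcript in the table. In the PTH libraries it measured 170, 145 and 162 FPKM, and in the vehicle libraries 68.5, 71.5 and 68.8 FPKM. Every PTH library was above every vehicle library, and the lowest of them, PTH 2, was still far from the vehicle range. The means were 158.9 ± 12.8 FPKM with PTH and 69.6 ± 1.65 FPKM with vehicle (SD, n = 3 each), a 2.28-fold ratio. The log2 difference was 1.18 with a standard error of 0.06 and a limma adjusted p of 3.51e-05, and 3.09% of all tested genes were called with a log2 difference of at least 1. In a bulk measurement, more RNA per cell and more cells with the RNA cannot be told apart. The difference was 1.31 after median centring and 1.20 after cyclic loess. In the authors' deposited table the Eprs transcript had a log2 fold change of 1.35 and a q of 0.00111.

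In PTH libraries the share of Eprs in the summed FPKM of the 20 cytosolic genes was 22.5%, 19.4% and 21.7%, and in vehicle libraries it was 9.54%, 9.67% and 9.58%. The cytosolic sum itself was 749.3 ± 3.56 FPKM with PTH and 725.4 ± 12.3 FPKM with vehicle (SD, n = 3 each; two-sided exact permutation p = 0.1, the smallest that 3 against 3 allows). Without Eprs the order turned, with 590.4 ± 9.23 FPKM in PTH libraries and 655.7 ± 10.7 FPKM in vehicle libraries (SD, n = 3 each; exact permutation p = 0.1). The sum of the other 19 genes was thus lower in all 3 PTH libraries than in any vehicle library, in libraries whose median FPKM was lower too.

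The 250 bases before the RefSeq start of Eprs (GRCm38.p6, chr1:185362794-185363043, plus strand) are shown because Eprs was the only synthetase gene called higher on the deposited values. Capitals mark the letters TGACG, the short form of a cyclic AMP response element, on either strand.
Eprs: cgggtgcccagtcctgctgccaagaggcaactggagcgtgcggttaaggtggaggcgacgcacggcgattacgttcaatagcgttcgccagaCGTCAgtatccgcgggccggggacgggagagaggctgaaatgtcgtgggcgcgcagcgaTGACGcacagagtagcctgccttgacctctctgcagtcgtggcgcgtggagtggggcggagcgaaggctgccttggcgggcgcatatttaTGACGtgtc
Counted from the start, the first bases of the 3 matches are at -158, -99 and -9, the first match being on the opposite strand. TGACG was searched after the promoter sequences had been seen, in windows from 250 bases before to 50 after each start, and it occurred in 20.8% of the 32851 RefSeq promoters and at least 3 times in 1.03% of them. Promoters of 27 of the 36 synthetase genes were matched in the RefSeq table, by symbol or listed synonym and at the locus of the gene. Of these 27 genes, 10 held TGACG, and Eprs was the one with 3 matches. The others were Farsb, Mars, Tars, Yars, Aars2, Ears2, Nars2, Sars2 and Wars2, all called lower on the deposited values. Over all tested genes, 41.0% were called lower. The whole element TGACGTCA was in the window of 0 of the 27 genes and in 1.79% of all promoters, and the NFIL3 site TTACGTAA was in 0 of the 27 and in 0.119% of all promoters. The promoters of Cars, Hars, Lars, Nars, Rars, Vars, Wars, Hars2 and Pars2 were not analysed here.

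The other 19 cytosolic genes had log2 differences between -0.53 and 0.06. Lower with PTH were the genes for the aspartyl (Dars), phenylalanyl beta chain (Farsb), isoleucyl (Iars), lysyl (Kars), leucyl (Lars), methionyl (Mars), seryl (Sars), threonyl (Tars), valyl (Vars), tryptophanyl (Wars) and tyrosyl (Yars) enzymes. Dars, for example, averaged 45.1 ± 1.77 FPKM in PTH libraries and 55.0 ± 1.23 FPKM in vehicle libraries, and Tars averaged 39.2 ± 1.17 FPKM with PTH and 47.5 ± 1.89 FPKM with vehicle (SD, n = 3 each). Of the 11, 10 lay between -0.41 and -0.12 on the log2 scale, and Dars, Farsb, Mars and Tars kept the call under every setting except TPM. Sars, at -0.12, was at 0.003 after median centring, and both Sars and Iars lost the call when any of 5 of the 6 libraries was left out. Without PTH 1 (for Sars) and without PTH 2 (for Iars) the calls stood, at limma adjusted p of 0.0345 and 0.0294. Wars lost the call without PTH 2, with a limma adjusted p of 0.0599.

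Vars averaged 26.0 ± 0.885 FPKM in PTH libraries and 34.7 ± 1.37 FPKM in vehicle libraries (SD, n = 3 each), a log2 difference of -0.41. Its most abundant coding transcript alone had a log2 difference of -0.18 and a limma adjusted p of 0.294. Yars measured 5.09, 3.88 and 3.48 FPKM in PTH libraries and 5.47, 6.23 and 6.75 FPKM in vehicle libraries. The groups did not overlap, but PTH 1 and vehicle 1 lay close to each other. The log2 difference of Yars was -0.53 (SE 0.14, limma adjusted p = 0.0176), and the call was lost in 9 of 17 settings, among them leaving out PTH 2, PTH 3 or vehicle 3, with adjusted p of 0.0557, 0.051 and 0.0635. All 6 Yars transcripts in the table are annotated as noncoding, so the value covers no protein-coding Yars transcript.

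Not past the threshold were Aars, Cars, Farsa, Gars, Hars, Nars, Qars and Rars, the genes for the alanyl, cysteinyl, phenylalanyl alpha chain, glycyl, histidyl, asparaginyl, glutaminyl and arginyl enzymes. Of these, 4 were called lower when the library number was fitted as a block, namely Aars, Cars, Farsa and Gars, with limma adjusted p of 0.0158, 0.0178, 0.0195 and 0.0341, which made 15 of 20 lower. In that fit 13.8% of all tested genes were higher and 50.0% lower. Aars was also called without vehicle 3, Cars without PTH 2 and Farsa without vehicle 1, with adjusted p of 0.0333, 0.0389 and 0.0207. Hars, Nars, Qars and Rars were within 0.06 of 0 on the log2 scale, with 95% intervals of -0.12 to 0.09, -0.11 to 0.10, -0.09 to 0.18 and -0.04 to 0.16. Rars measured 48.2, 48.9 and 48.5 FPKM in PTH libraries and 46.7, 48.3 and 44.9 FPKM in vehicle libraries, so the groups overlapped. After median centring Rars was called higher, at 0.18 with a limma adjusted p of 0.0156.

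The cytosolic genes were also grouped by enzyme class and by complex. The counts below stand beside 10.8% higher and 41.0% lower of all tested genes, and 18.3% and 24.0% after median centring. Eprs, which has a class I and a class II part, is left out of both classes here. Of the 9 class I genes 6 were lower and of the 10 class II genes 5 were lower, with medians of -0.22 and -0.16. Of the 8 genes whose products sit in the multi-synthetase complex (Dars, Eprs, Iars, Kars, Lars, Mars, Qars and Rars), Eprs was higher and 5 were lower, and of the 12 outside it 0 were higher and 6 lower, with medians of -0.16 and -0.17. After median centring the complex genes split into 2 higher and 2 lower and the 12 others into 0 higher and 3 lower. The 3 scaffold proteins of the complex followed no single pattern. Aimp2 averaged 22.2 ± 2.04 FPKM in PTH libraries and 29.8 ± 1.46 FPKM in vehicle libraries, a called log2 difference of -0.42 (limma adjusted p = 0.0038). Aimp1 averaged 49.6 ± 0.541 FPKM with PTH and 53.7 ± 1.03 FPKM with vehicle, a log2 difference of -0.11 (limma adjusted p = 0.0393) that turned to 0.01 after centring and was lost when any 1 library was left out, with adjusted p of 0.063 to 0.126. Eef1e1 averaged 17.8 ± 0.478 FPKM in PTH libraries and 17.8 ± 0.757 FPKM in vehicle libraries (SD, n = 3 each) and was not past the threshold (limma adjusted p = 0.971).

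**Figure D2:**
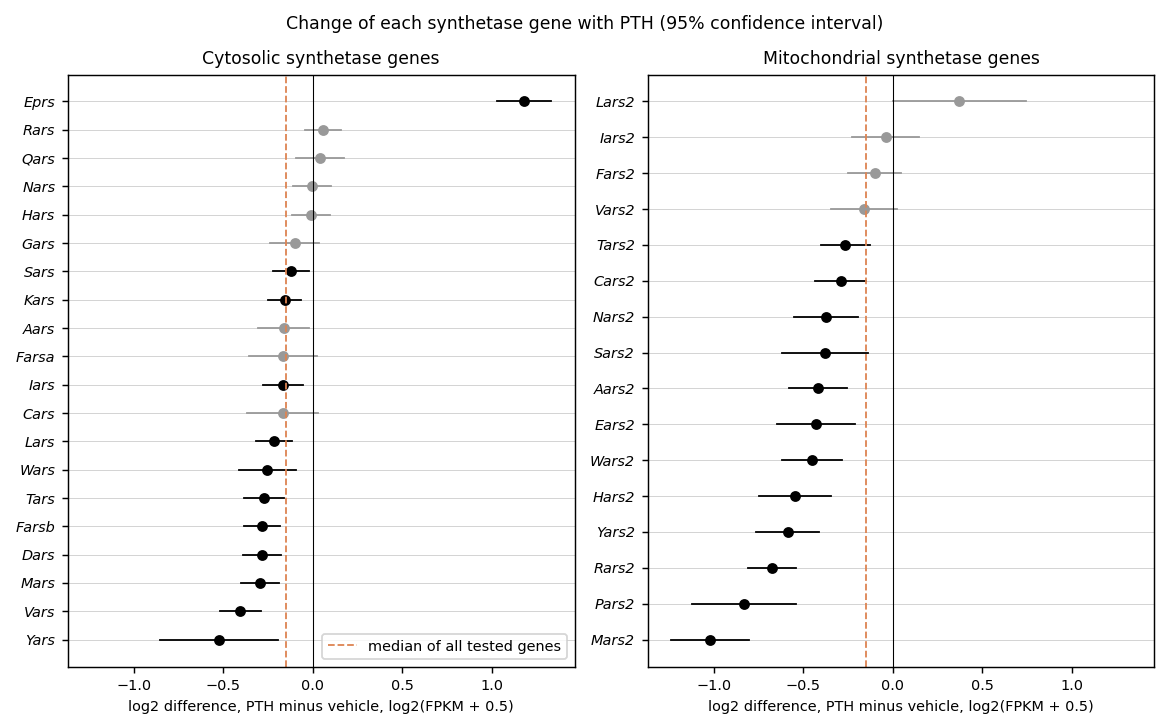
Log2 difference of PTH minus vehicle for each synthetase gene with its 95% confidence interval from limma; black marks genes past the threshold, grey those not past it, and the dashed line is the median of all tested genes, -0.15. Eprs stands at 1.18, and the mitochondrial genes from Tars2 down to Mars2 lie below 0.

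The mitochondrial enzymes charge the tRNAs that read the few protein genes of mitochondrial DNA, all of which encode parts of the respiratory chain or of ATP synthase. Of their 16 genes, 12 were lower with PTH, and 5 of those 12 were lower by at least 0.5 on the log2 scale: Mars2, Pars2, Rars2, Yars2 and Hars2. Among all tested genes, 12.6% were called lower by at least this much, and Yars was the one cytosolic gene that was. The 16 genes had a median log2 difference of -0.40 on the deposited scale, -0.27 after median centring and -0.12 after cyclic loess, where the medians of all tested genes were -0.15, -0.03 and 0.01. The mitochondrial genes were also the less abundant set, with 7 of them under 5 FPKM on average. Across all tested genes the difference moved with level: the median was -0.27 over the 2942 genes with a mean of 1 to 5 FPKM, -0.19 over the 4901 genes from 5 to 20 FPKM and -0.06 over the 3785 genes at 20 FPKM or more. The lowest of these ranges held 7 mitochondrial and 0 cytosolic synthetase genes, and the highest held 1 and 14. After cyclic loess, with medians of 0.02 or less in all 3 ranges, the calls of Mars2, Pars2, Rars2, Yars2 and Hars2 were left.

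**Figure D3:**
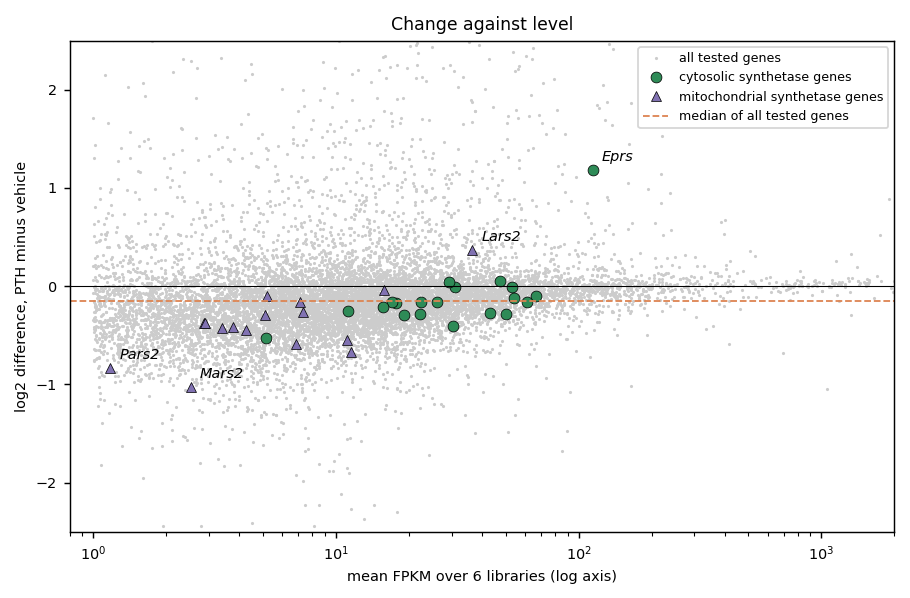
Log2 difference of PTH minus vehicle against the mean FPKM over the 6 libraries (log axis) for all 11628 tested genes in grey, cytosolic synthetase genes as circles and mitochondrial ones as triangles; the vertical axis is limited to -2.5 to 2.5. Eprs lies at 1.18, above most genes of its level, Mars2 and Pars2 lie at -1.02 and -0.83 among the weakly expressed genes, and the dashed line marks the median of all tested genes.

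Mars2, the mitochondrial methionyl-tRNA synthetase (chr1:55237177-55248470, plus strand), had the most negative difference of the 36. It measured 1.42, 1.60 and 1.45 FPKM in PTH libraries and 3.17, 3.89 and 3.58 FPKM in vehicle libraries. The 3 PTH values lay close together and below every vehicle value. The log2 difference was -1.02 (SE 0.09, limma adjusted p = 0.000252), and it was -0.90 after median centring and -0.73 after cyclic loess.

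Pars2, the mitochondrial prolyl-tRNA synthetase (chr4:106651069-106655282, plus strand), was the least abundant synthetase gene. It measured 0.874, 0.712 and 0.547 FPKM in PTH libraries and 1.62, 1.61 and 1.70 FPKM in vehicle libraries, without overlap. The log2 difference was -0.83 (SE 0.12, limma adjusted p = 0.00169), on a scale whose pseudocount understates the change of so low a gene. Rars2, the mitochondrial arginyl-tRNA synthetase (chr4:34614957-34660167, plus strand), measured 8.80, 9.17 and 8.42 FPKM in PTH libraries and 14.9, 14.5 and 13.5 FPKM in vehicle libraries, again without overlap. Its log2 difference was -0.67 (SE 0.06, limma adjusted p = 0.000198).

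Yars2, the mitochondrial tyrosyl-tRNA synthetase (chr16:16302965-16309640, plus strand), measured 5.61, 5.64 and 4.85 FPKM in PTH libraries and 8.01, 8.83 and 8.08 FPKM in vehicle libraries. The log2 difference was -0.59 (SE 0.07, limma adjusted p = 0.000951), with no overlap between groups. Hars2, the mitochondrial histidyl-tRNA synthetase (chr18:36783008-36792562, plus strand), measured 8.17, 10.1 and 8.68 FPKM in PTH libraries and 14.2, 13.0 and 12.7 FPKM in vehicle libraries. Its groups did not overlap either, and its log2 difference was -0.55 (SE 0.08, limma adjusted p = 0.00208), a call lost only as TPM, with an adjusted p of 0.0663. The exons of Hars2 share 195 bases with those of Hars on the opposite strand, and whether the authors' counting used strand is not given in the sources used here, so reads in the shared bases could have gone to either gene.

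The other 7 lower mitochondrial genes, Aars2, Cars2, Ears2, Nars2, Sars2, Tars2 and Wars2, lay between -0.45 and -0.26 on the log2 scale. Aars2, for example, averaged 3.17 ± 0.153 FPKM in PTH libraries and 4.40 ± 0.256 FPKM in vehicle libraries, and Wars2 averaged 3.51 ± 0.161 FPKM with PTH and 4.99 ± 0.341 FPKM with vehicle (SD, n = 3 each). All 7 lost the call after cyclic loess and as TPM. The Sars2 call was also lost without PTH 2 or vehicle 2, with limma adjusted p of 0.0521 and 0.062. The most abundant coding transcript of Nars2 alone had a log2 difference of -0.04, against -0.37 for the gene. Fars2, Iars2 and Vars2 were not past the threshold, with log2 differences of -0.10, -0.04 and -0.16 that became positive after cyclic loess.

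Lars2, the mitochondrial leucyl-tRNA synthetase (chr9:123366927-123462666, plus strand), stood apart from the rest of its set. It measured 46.2, 31.6 and 46.3 FPKM in PTH libraries and 28.5, 34.5 and 31.4 FPKM in vehicle libraries. PTH 2 lay inside the vehicle range and the other 2 PTH libraries lay above it. The log2 difference was 0.37 (SE 0.16, limma adjusted p = 0.0863, 95% interval 0.00 to 0.75), and without PTH 2 it was 0.55 with an adjusted p of 0.00478. After median centring Lars2 was called higher, at 0.50 with a limma adjusted p of 0.0395. In the authors' deposited table its transcript had a log2 fold change of 0.54 and a q of 0.00111. Lars2 held 36.6%, 28.4% and 38.3% of the summed mitochondrial FPKM in PTH libraries and 21.2%, 25.2% and 23.4% in vehicle libraries. Without it the mitochondrial sum was 78.1 ± 2.98 FPKM with PTH and 103.7 ± 1.85 FPKM with vehicle (SD, n = 3 each; two-sided exact permutation p = 0.1). With it, the sum was 119.4 ± 7.73 FPKM in PTH libraries and 135.1 ± 1.52 FPKM in vehicle libraries (SD, n = 3 each; exact permutation p = 0.1).

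In PTH libraries the FPKM levels of the cytosolic genes ran down to 4.15 ± 0.841 for Yars from 158.9 ± 12.8 for Eprs, and in vehicle libraries to 6.15 ± 0.645 for Yars from 69.6 ± 1.65 for Eprs (SD, n = 3 each). Since the Yars value holds no protein-coding transcript, its place in the order does not show the level of coding Yars RNA. The mitochondrial genes ran down to 0.711 ± 0.164 for Pars2 from 41.4 ± 8.48 for Lars2 in PTH libraries, and to 1.64 ± 0.047 for Pars2 from 31.4 ± 3.00 for Lars2 in vehicle libraries (SD, n = 3 each). In PTH libraries the order of all 36 began with Eprs at 158.9, Gars at 64.2 and Kars at 57.8 FPKM, with no overlap between these neighbours. In vehicle libraries Eprs and Gars, again at the top, overlapped, with means of 69.6 and 68.9 FPKM, and Kars followed at 64.5 FPKM without overlap with Gars. Mars2 stood at rank 35 in PTH libraries, with no overlap with Nars2 above it or Pars2 below it, and at rank 33 in vehicle libraries, where it overlapped its neighbours Ears2 and Sars2. Gars and Kars each give rise to both the cytosolic and the mitochondrial enzyme in mammals, so their levels belong to both sets.

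Setting the cytosolic and mitochondrial genes for the same amino acid side by side gave 17 pairs, in which Eprs pairs with both Ears2 and Pars2, and Fars2 with both Farsa and Farsb. The cytosolic gene was the more abundant in 15 of the 17 pairs by mean FPKM over the 6 libraries, and the exceptions were leucine, where Lars2 was at 36.4 FPKM and Lars at 15.6 FPKM, and tyrosine, where Yars2 was at 6.84 FPKM and Yars at 5.15 FPKM. The Yars value covers noncoding transcripts alone, so the tyrosine pair cannot compare the levels of coding RNA. The mitochondrial difference was below the cytosolic one in 11 pairs, and in 8 of these 11 the ratio of the genes did not overlap between PTH and vehicle libraries. It was above the cytosolic one in the other 6 pairs, and in 3 of these 6 (Fars2 with Farsb, leucine and valine) the ratio did not overlap either. No share over other gene pairs was computed to set beside these counts. A ratio within a library does not depend on how libraries are scaled as a whole, and it shows unequal change, not which gene changed. It does keep a trend with level, and the cytosolic gene was the more abundant in most pairs. The pair counts were made on the deposited scale only. After cyclic loess Sars2 and Sars were at -0.09 and -0.06, close together, and Mars2 and Mars were at -0.73 and -0.15, still apart.

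The widest gaps were those of proline and glutamate. The log2 difference of Pars2 minus that of Eprs was -2.01, and that of Ears2 minus that of Eprs was -1.61. Ears2, the mitochondrial glutamyl-tRNA synthetase (chr7:122037213-122067263, minus strand), measured 2.58, 3.14 and 2.73 FPKM in PTH libraries and 3.61, 4.09 and 4.20 FPKM in vehicle libraries, with a called log2 difference of -0.43 (limma adjusted p = 0.00734). The 2 mitochondrial genes for the amino acids that Eprs serves in the cytosol were thus both lower where Eprs was higher. For methionine, Mars measured 17.4, 17.6 and 16.4 FPKM in PTH libraries and 21.1, 21.0 and 21.2 FPKM in vehicle libraries, so both genes were lower, and the gap of Mars2 minus Mars was -0.73. For arginine the gap of Rars2 minus Rars was -0.73, where the Rars groups overlapped and the Rars2 groups did not.

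Histidine showed the same arrangement. Hars measured 29.5, 30.8 and 31.8 FPKM in PTH libraries and 30.4, 31.2 and 31.3 FPKM in vehicle libraries, with the vehicle values inside the PTH range, and the gap of Hars2 minus Hars was -0.53. Leucine ran the other way, with a gap of Lars2 minus Lars of 0.59. Lars measured 14.6, 14.4 and 14.2 FPKM in PTH libraries and 17.3, 16.6 and 16.4 FPKM in vehicle libraries, every PTH value lower, with a log2 difference of -0.22 (limma adjusted p = 0.00559) that was not called after median centring, at -0.09.

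**Figure D4:**
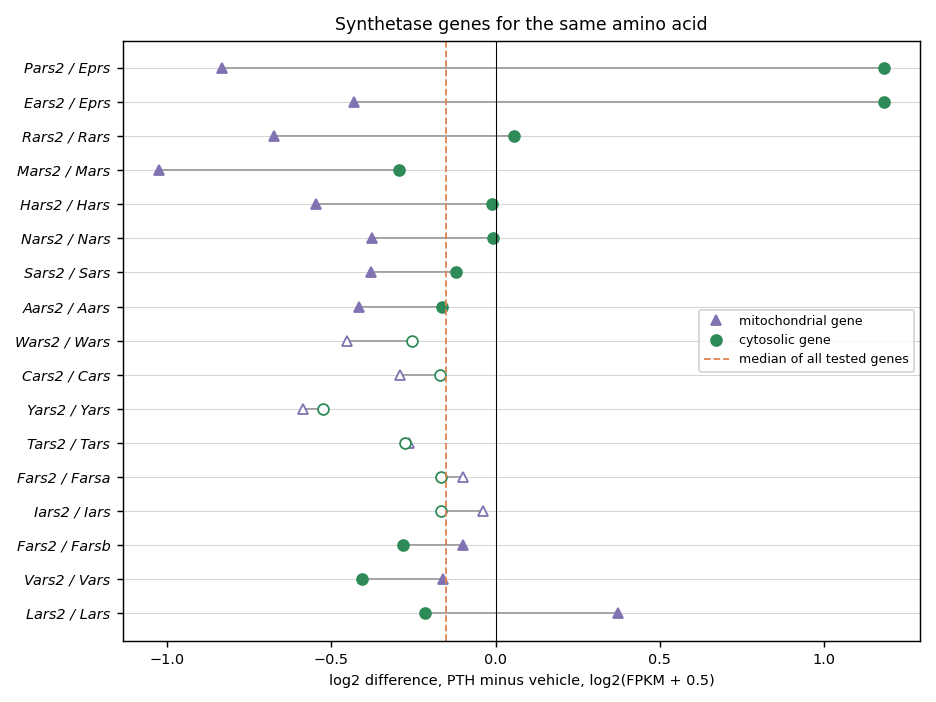
Log2 difference of PTH minus vehicle of the mitochondrial gene (triangle) and the cytosolic gene (circle) for each of the 17 pairs; filled symbols mark pairs whose ratio did not overlap between PTH and vehicle libraries. Pars2 and Ears2 lie left of 0 while Eprs lies at 1.18, and the leucine pair at the bottom is the one where the mitochondrial gene lies right of 0.

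The table held 118 transcripts of the 36 genes, of which 60 are annotated as noncoding, 45 of them as retained introns. Of the 58 with a mean of at least 1 FPKM, the Eprs transcript was higher and 21 were lower, where 8.13% and 22.2% of the 21983 tested transcripts were higher and lower. By annotation, 1 of the 46 tested coding transcripts was higher and 19 were lower, and of the 12 tested noncoding ones 0 were higher and 2 lower. With the block, 2 were higher, the second being a nonsense-mediated decay transcript of Farsa, and 22 lower. After median centring 3 were higher and 9 lower, after cyclic loess 2 were higher and 7 lower, and as TPM 1 was higher and 1 lower. The count of lower transcripts was 13 without PTH 1, PTH 2 or vehicle 2, 12 without PTH 3 or vehicle 3, and 17 without vehicle 1, and the count of higher ones was 2 without PTH 2 or vehicle 3. For these alternatives no share over all tested transcripts is given, so the counts cannot be compared with transcripts at large.

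For 11 synthetase genes it could be tested whether their transcripts changed unequally. None passed limma's diffSplice test at an adjusted p of 0.05, against 11.7% of all genes tested that way, and 3 (Farsa, Farsb and Kars) had an unadjusted p under 0.05. Farsa came nearest, with an adjusted p of 0.0604. Its main coding transcript averaged 10.3 ± 0.602 FPKM in PTH libraries and 12.8 ± 0.67 FPKM in vehicle libraries, a called log2 difference of -0.30 (limma adjusted p = 0.0194). Its nonsense-mediated decay transcript measured 1.57, 1.34 and 1.87 FPKM in PTH libraries and 0.649, 0.795 and 1.18 FPKM in vehicle libraries, without overlap, at a log2 difference of 0.62 (limma adjusted p = 0.0526). In the authors' deposited table, 5 of the 118 transcripts had a q under 0.05, where 3.9% of all transcripts were higher and 3.71% lower. These 5 belonged to Eprs and Lars2, with positive log2 fold changes, and to Mars2, Pars2 and Rars2, with log2 fold changes of -1.08, -1.03 and -0.50.

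Some members share exon bases with neighbouring genes, and the sources used here do not say whether counting used strand. The shares were 22.9% of the Iars2 exon bases with Rab3gap2, 22.2% of those of Cars2 with Naxd and 11.3% of those of Farsb with Sgpp2, all on the opposite strand, and 18.4% of those of Aars with Exosc6 on the same strand. Mars shares 68 bases with Ddit3 on the opposite strand. Iars has a processed pseudogene, Gm4849, that matched it at 96.0% identity over 1656 bases. The values of these genes are uncertain to that extent.

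ATF4 is known to raise many cytosolic synthetase genes when amino acids are short, and the 20 genes were therefore split into 13 that are usually listed as ATF4 targets and 7 that are not. Of the 13, Eprs was higher and 8 were lower, with a median log2 difference of -0.17, and of the 7, 0 were higher and 3 lower, with a median of -0.16. After median centring the 13 split into 1 higher and 3 lower and the 7 into 1 higher and 2 lower. Shares over all tested genes were 10.8% higher and 41.0% lower before centring, and 18.3% and 24.0% after it. The composite element of C/EBP and ATF4 has the core TGATGNAA. Searched on both strands, this core was in the promoter window of 5 of the 27 matched genes, all cytosolic and ATF4-listed, and in 3.97% of all 32851 promoters. These 5 genes are shown because none of them was called higher on the deposited values. Aars held 2 matches, with first bases at -112 and 10 counted from its start, and only the match at 10 is printed. A window of each gene is given below from RefSeq (GRCm38.p6), written in the direction of the gene. The core is in capitals as it reads on that strand.
Aars, chr8:111033841-111033868, plus strand: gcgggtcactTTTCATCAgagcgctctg
Gars, chr6:55037961-55037988, plus strand: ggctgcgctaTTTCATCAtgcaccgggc
Iars, chr13:49682127-49682154, plus strand: actgtcagtaTTGCATCAcctccagacg
Tars, chr15:11399656-11399683, minus strand: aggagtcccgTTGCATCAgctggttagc
Yars, chr4:129189896-129189923, plus strand: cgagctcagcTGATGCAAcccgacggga
Of these genes Iars, Tars and Yars were lower, with log2 differences of -0.17, -0.27 and -0.53, and Aars and Gars were not past the threshold, at -0.16 and -0.10. The Eprs window holds no match to this core. The E-box CACGTG was in the windows of Aars, Farsb, Iars, Tars and Ears2, 5 of 27 genes, and in 7.15% of all promoters.

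The wider genes of the integrated stress response and amino acid supply split in both directions. Of 33 listed genes, 27 were tested, and 5 were higher and 13 lower, with a median log2 difference of -0.19. With the library number as a block 8 were higher and 14 lower, after median centring 6 were higher and 5 lower, and after cyclic loess 9 were higher and 5 lower. Over all tested genes the shares were 10.8% higher and 41.0% lower on the deposited scale, and 13.8% and 50.0% with the block. They were 18.3% and 24.0% after median centring and 20.2% and 17.6% after cyclic loess. The higher genes with the largest differences were Ddit4, an inhibitor of mTORC1, Ppp1r15a, which directs the removal of the phosphate from eIF2 alpha, Slc3a2, the shared heavy chain of several amino acid transporters, and Slc38a2, a transporter of neutral amino acids. Ddit4 measured 100.3, 111 and 116 FPKM in PTH libraries and 20.1, 17.4 and 22.5 FPKM in vehicle libraries, a log2 difference of 2.42. Ppp1r15a measured 24.2, 27.9 and 31.8 FPKM in PTH libraries and 5.06, 5.14 and 6.52 FPKM in vehicle libraries, a log2 difference of 2.23. In both genes every PTH value was far above every vehicle value, with limma adjusted p of 1.22e-05 and 4.39e-05.

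Slc3a2 averaged 123 ± 8.22 FPKM with PTH and 51.5 ± 1.59 FPKM with vehicle, and Slc38a2 averaged 171 ± 12.2 FPKM with PTH and 92.9 ± 7.32 FPKM with vehicle (SD, n = 3 each), log2 differences of 1.25 and 0.88. The fifth higher gene, outside the rule for named genes, was Atf4 itself, at 159 ± 7.52 FPKM in PTH libraries and 134 ± 11.3 FPKM in vehicle libraries (SD, n = 3 each), a log2 difference of 0.25 (limma adjusted p = 0.02). The call of Atf4 was lost after quantile normalisation and as TPM, with limma adjusted p of 0.0962 and 0.235. The 13 lower genes were Ddit3, Chac1, Sesn2, Nupr1, Cebpg, Eif4ebp1, Psat1, Phgdh, Shmt2, Aldh18a1, Gpt2, Slc1a4 and Slc1a5, with log2 differences between -0.64 and -0.20. Among them Ddit3, Chac1, Sesn2 and Nupr1, known to be induced by the stress response, were at -0.58, -0.47, -0.51 and -0.58. These genes and Atf3, of the same list, lie outside the rule for named genes. Atf3 was not called, at 0.89 with overlapping groups (limma adjusted p = 0.064). It was called higher with the block, after quantile normalisation, after cyclic loess and as TPM. Chac1 (0.851 FPKM with PTH, 1.37 FPKM with vehicle) passed the minimum level through the vehicle group, and Atf3 (1.49 and 0.641 FPKM) through the PTH group. After cyclic loess the calls of Ddit3 and Sesn2 stood and those of Chac1 and Nupr1 were lost, with limma adjusted p of 0.336 and 0.0866. Asns, the asparagine synthetase and a standard ATF4 target chosen here after its values were seen, averaged 18.0 ± 1.08 FPKM with PTH and 17.8 ± 1.66 FPKM with vehicle (SD, n = 3 each), with a log2 difference of 0.02 (limma adjusted p = 0.879). Of the 4 kinases that phosphorylate eIF2 alpha, 0 were higher and 3 were lower, where 10.8% of all tested genes were higher and 41.0% lower. Eif2ak4, the sensor of uncharged tRNA also known as GCN2, measured 4.81, 5.22 and 5.37 FPKM in PTH libraries and 7.55, 7.02 and 8.19 FPKM in vehicle libraries, every PTH value lower, with a log2 difference of -0.52 (limma adjusted p = 0.00139). Eif2ak3 and Eif2ak1, at -0.25 and -0.21, were not called after median centring, and the Eif2ak3 call was also lost without PTH 1, PTH 2, vehicle 2 or vehicle 3, with limma adjusted p of 0.0586 to 0.107.

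Other genes that act on charged tRNAs were mostly lower. Of 16 listed genes 15 were tested, and 0 were higher and 11 lower, with a median log2 difference of -0.34, and after cyclic loess 1 was higher and 4 lower. Among all tested genes 10.8% were higher and 41.0% lower, and after cyclic loess 20.2% and 17.6%. No gene of this list was higher at an unadjusted limma p under 0.05 on the deposited scale. Qrsl1 encodes a subunit of the amidotransferase that converts glutamyl-tRNA to glutaminyl-tRNA in mitochondria, a step that follows Ears2 since mitochondria have no glutaminyl-tRNA synthetase. It averaged 3.50 ± 0.20 FPKM in PTH libraries and 6.03 ± 0.193 FPKM in vehicle libraries (SD, n = 3 each), a log2 difference of -0.71 (limma adjusted p = 0.000228). Mtfmt, which formylates the methionyl-tRNA made by Mars2, averaged 4.18 ± 0.184 FPKM with PTH and 6.31 ± 0.147 FPKM with vehicle, a log2 difference of -0.54. Prorsd1, a relative of bacterial enzymes that clear mischarged prolyl-tRNA, and Ptrh2, a peptidyl-tRNA hydrolase, were lower by -0.65 and -0.63 on the log2 scale. All 4 were called after median centring and after cyclic loess as well.

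**Figure D5:**
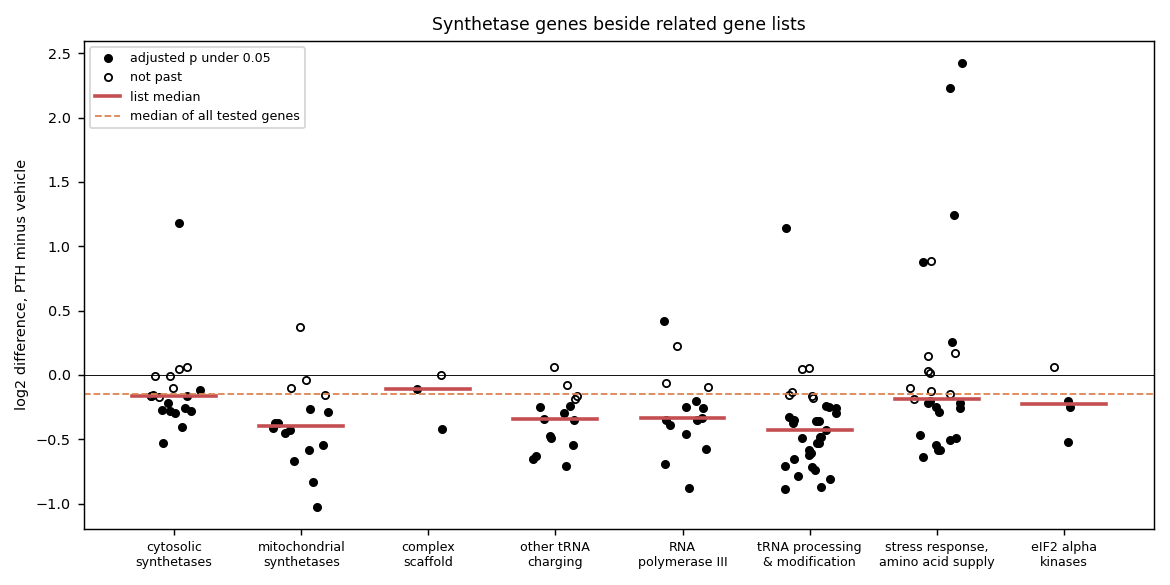
Log2 difference of PTH minus vehicle of each tested gene in the synthetase sets and in 6 related lists; filled circles are past the threshold, open circles are not, red bars are list medians and the dashed line is the median of all tested genes. The cytosolic median (-0.17) is near the dashed line (-0.15), the mitochondrial median (-0.40) is below it, and the highest points of the stress response list are Ddit4 (2.42) and Ppp1r15a (2.23).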

How the data were processed

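RNA-seq of 6 libraries was analysed, 3 from PTH-treated and 3 from vehicle-treated MC3T3-E1 cells, with groups and library numbers taken from the sample titles. Per the labels' protocols, TRIzol RNA and a stranded mRNA kit gave paired-end reads of 100 bases, and the authors obtained FPKM per assembled transcript from Cufflinks. The build, per the submitters' processing notes, was mm10. Which aligner, tool versions, annotation and strand setting they used is not given in the sources used here. For each transcript the authors also deposited a log2 fold change with its p-value and q-value. Its groups are unnamed, and of 2855 transcripts with q under 0.05, 2846 had a finite log2 fold change, of which 2844 had the sign of PTH over vehicle, so it was read that way. The authors' log2 values had a median of 0.02 over transcripts with a mean of at least 1 FPKM. 

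FPKM were summed per gene symbol (13659 symbols, 37478 transcripts), and genes with a mean of at least 1 over the 6 libraries were tested with limma 3.58.1 in R 4.3.3 (lmFit, then eBayes with a trend) on the log2(FPKM + 0.5) scale, two-sided, with Benjamini-Hochberg adjustment over all 11628 tested genes. The same was done for 21983 transcripts, with diffSplice for unequal change over 4818 genes. Confidence intervals are 95%. No depth, counting interval or detection floor could be derived, because FPKM keep no counts. Same-numbered libraries deviated together from their group means (correlations of 0.28 to 0.42, crossed numbers at most -0.03), so the numbers may pair the libraries, which the labels do not state. The main fit, the fits leaving out a library, diffSplice and the exact permutation tests ignored such a pairing. A fit with the number as a block was run as an alternative. Other alternatives were median centring, TPM, quantile normalisation, cyclic loess, pseudocounts of 0.1 and 1, other minimum levels, the most abundant transcript alone and leaving out each library. Members and lists were chosen with earlier results of these data known. Values in every library are given for called members with a log2 difference of at least 0.5 in size and for 6 partners, and up to 4 called genes of each related list are named.

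Gene coordinates and exon overlaps are from GENCODE M21 (GRCm38, the assembly of mm10), promoters from RefSeq (GRCm38.p6), and near copies were sought with BLAST 2.17.0 at 95% identity over at least 100 bases. Python 3.11.15, pandas 2.3.3, numpy 2.4.6, scipy 1.17.1 and matplotlib 3.10.9 were used.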

Additional observations from a re-analysis of the deposited data

How the results depend on the processing

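Over the 36 synthetase genes, 483 of 604 results under an alternative kept their direction and their side of the threshold, 76 lost a call, 15 gained one and 30 changed sign. The call of Eprs stood in all 17 settings, and those of Mars2, Rars2 and Yars2 in every setting in which each was tested. That of Pars2, which passed the minimum level through the vehicle group, stood in the 15 settings in which it was tested. Over all tested genes, 2131 were higher and 2792 lower after median centring, against 1252 and 4765; with the replicate block alone 1605 were higher and 5811 lower; with centring and block 2890 were higher, after cyclic loess 2345 and 2051, as TPM 1222 were lower and after quantile normalisation 3096. Cytosolic genes called higher numbered 2 after centring and 5 with centring and block; those called lower numbered 5 after centring, 5 with centring and block, 0 as TPM, 7 after quantile normalisation and 5 after loess. Mitochondrial genes called higher numbered 1 after centring, with or without the block, and 0 to 1 when a library was left out; those called lower numbered 4 as TPM, 6 after quantile normalisation, 5 after loess and 5 at a mean of at least 5 FPKM, where fewer genes were tested. Transcripts called higher numbered 2 with the block, 3 after centring with or without it, 2 after quantile normalisation, 2 after loess and 1 to 2 without a library; those called lower numbered 9 after centring, 8 with centring and block, 1 as TPM, 7 after loess and 12 to 17 without a library. No share over all tested transcripts is given for these settings, so the transcript counts cannot be compared with transcripts at large. The cytosolic median was -0.041 after centring, with or without the block, -0.074 as TPM, -0.13 after quantile normalisation and -0.054 after loess. The mitochondrial median was -0.27 after centring, with or without the block, -0.33 as TPM, -0.16 after quantile normalisation, -0.12 after loess, -0.45 and -0.35 at pseudocounts of 0.1 and 1, -0.26 at a mean of at least 5 FPKM, -0.32 for the most abundant transcript and -0.42 to -0.38 without a library. Sign changes concerned differences that were between -0.16 and 0.04 on the deposited scale, of which those of Sars and Aimp1 were called. After centring, with or without the block, Gars was at 0.022, Hars at 0.11, Nars at 0.12, Sars at 0.0026, Fars2 at 0.024, Iars2 at 0.084 and Aimp1 at 0.011. As TPM, Hars was at 0.080, Nars at 0.086 and Iars2 at 0.051. After quantile normalisation, Hars was at 0.011, Fars2 at 0.10, Iars2 at 0.061 and Vars2 at 0.016. After loess, Hars was at 0.092, Nars at 0.055, Fars2 at 0.16, Iars2 at 0.12 and Vars2 at 0.074. Qars was at -0.0082 for its most abundant transcript. Without a library, Hars lay between -0.038 and 0.016, Nars between -0.042 and 0.015 and Iars2 between -0.10 and 0.022. The replicate block made Aars, Cars, Farsa and Gars lower (15 of 20 cytosolic genes, where 50.0% of all tested genes were lower), and it changed no other call among the synthetase genes and the named genes of the related lists. The cause of these shifts was not tested. Depth is unknown, so no counting error could be given for any gene. The most abundant transcript alone could not be used for counts of transcripts, and several low mitochondrial genes were not tested at a mean of at least 5 FPKM.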

Other observations

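The machinery that makes and matures tRNAs was measured beside the enzymes that charge them. RNA polymerase III transcribes the tRNA genes. Of 15 genes for its subunits, its initiation factors and its repressor Maf1, 1 was higher and 11 were lower with PTH, with a median log2 difference of -0.34 against -0.15 over all tested genes. With the library number as a block 2 were higher and 11 lower, after median centring 2 were higher and 7 lower, and after cyclic loess 2 were higher and 3 lower. The shares over all tested genes were 10.8% higher and 41.0% lower on the deposited scale, and 13.8% and 50.0% with the block. They were 18.3% and 24.0% after median centring and 20.2% and 17.6% after cyclic loess. Polr3e, a subunit of the polymerase, measured 3.45, 4.01 and 3.84 FPKM in PTH libraries and 7.08, 7.68 and 7.31 FPKM in vehicle libraries, with no overlap and a log2 difference of -0.88 (limma adjusted p = 0.000147). The subunits Polr3g, Crcp and Polr3c were lower by -0.69, -0.58 and -0.46 on the log2 scale. After cyclic loess the calls of Crcp and Polr3c stood and that of Polr3g was lost, with a limma adjusted p of 0.0643. The one higher gene, named here after its values were seen, was Bdp1, a part of the initiation factor TFIIIB, at 9.72 ± 0.983 FPKM in PTH libraries and 7.14 ± 0.614 FPKM in vehicle libraries (SD, n = 3 each), a log2 difference of 0.42 (limma adjusted p = 0.00856).

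Genes that cut, splice and modify tRNAs were lower in most cases. Of 36 listed genes 33 were tested, and 1 was higher and 26 were lower, with a median log2 difference of -0.43, and after cyclic loess 3 were higher and 13 lower. Of all tested genes, 10.8% were higher and 41.0% lower, and after cyclic loess 20.2% and 17.6%. Pop4, a protein of the enzymes RNase P and RNase MRP, was the higher one, with 54.5, 36.2 and 42.6 FPKM in PTH libraries and 19.5, 20.7 and 18.7 FPKM in vehicle libraries, every PTH value higher, and a log2 difference of 1.14 (limma adjusted p = 0.000822). Rpp38, another RNase P protein, went the other way, at 5.18 ± 0.19 FPKM with PTH and 10.0 ± 1.30 FPKM with vehicle (SD, n = 3 each), a log2 difference of -0.89 (limma adjusted p = 0.000433). Trmt5, a tRNA methyltransferase, and Tsen15, a subunit of the tRNA splicing endonuclease, were lower by -0.87 and -0.81, with limma adjusted p of 0.000102 and 0.000154. The calls of these 4 genes stood after median centring and after cyclic loess.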
